A study of Mus musculus with 4 samples.

Results

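The skeletal muscle programme described here is a set of 34 genes that encode myogenic regulators, junction proteins and parts of the contractile apparatus, measured in embryonic mouse kidneys with and without Wnt4. The set was chosen on the signals of 2 of its genes, Myog and Myl1, which were high in the mutant kidneys of these data, so the mutant minus wild-type differences of its genes only describe the set. The calls and counts given for these genes rest on that same contrast and support nothing beyond it. All 34 were on the array, among 18194 genes with a probe set of their own, at 56 of its 45101 probe sets. A probe set is a group of short probes for 1 transcript, and 23 of the genes had 1 probe set while 11 had several. The gene symbols follow the array's annotation, and only probe sets assigned to a single gene were used.

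RNA came from whole kidneys at E14.5, counted in days of gestation (Theiler stage 22), with 2 arrays per genotype. Each wild-type array held RNA pooled from 2 kidneys of embryos with the strain given as CD-1, and each mutant array RNA pooled from 12 kidneys of embryos null for Wnt4 (allele Wnt4tm1Amc) with the strain given as 129. The protocol text, common to all arrays, describes CD-1 matings. Effects of genotype, of stated strain and of pool size cannot be told apart here. Separate litters are not mentioned for the pools, so errors and p-values measure only the spread between these pools, which may be technical. The Wnt4 signal at the brighter of its probe sets was 1885 and 1769.9 in wild-type against 406 and 272 in mutant kidneys, in the direction of the labels. Where its probes lie with respect to the disruption was not analysed here, so this check is incomplete. Kidney markers were bright on all 4 arrays: the progenitor gene Six2 lay between 2670.2 and 3759.5 and the nephron and progenitor gene Wt1 between 1839 and 3195.

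Skeletal muscle forms from mesodermal precursors marked by Pax3 and Pax7, which switch on the MyoD family of transcription factors. Myf5 and Myod1 commit cells to the lineage, and Myog drives their differentiation into fusing, contracting fibres. Differentiating fibres first make embryonic and slow isoforms of the sarcomere proteins, several of them shared with the embryonic heart. The kidney itself is not a skeletal muscle organ, and its contractile cells are the smooth muscle and pericyte-like cells of vessels and ureter.

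At their brightest tested probe set, 11 of the 22 genes of the set that were bright enough to be tested were called higher in the mutant kidneys (limma, against 6.70% of all genes tested), and the precursor genes Pax3, Pax7 and Myf5 were below the tested level. The 11 include Myog and Myl1, on which the set was chosen. Myog, Myl1, Tnnt2 and Ryr1, all among the 11, were bright enough only through their mutant signal. The 4 members with the greatest differences at their brightest tested probe set were Myog, Myl1, Actc1 and Tnnt2. Values are the deposited signals, in arbitrary units on a linear scale, and differences are in log2(signal + 16), mutant minus wild-type, with the standard error of the fit. Myog, which encodes myogenin, read 126 (replicate 1) and 40.3 (replicate 2) in wild-type kidneys and, in the same order, 903 and 754 in mutant kidneys. Its log2 difference was 3.23 ± 0.39 (SE). Myl1, the alkali light chain of fast skeletal myosin, read 111 and 35.4 against 506 and 728, a log2 difference of 2.95 ± 0.41. Both wild-type arrays lay far below both mutant arrays for each of these genes, and wild-type replicate 2 was the lowest array. Actc1, the cardiac actin that embryonic skeletal muscle also makes, had the highest mutant signal of the set, with 715 and 578 in wild-type and 4263 and 3889.7 in mutant kidneys (log2 difference 2.63 ± 0.12). Tnnt2, the cardiac troponin T that is also made in embryonic skeletal muscle, read 85.3 and 82.1 against 544 and 468 (2.38 ± 0.22). Its wild-type arrays differed little from each other, unlike those of Myog and Myl1. Fewer cells of a type and less RNA per cell cannot be told apart in whole-organ samples, and the same holds for more.

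The promoters of these 4 genes are shown because they are the members with the greatest differences, and because sequence before the start was not used to choose the set. Its genes were picked as muscle genes, so motif shares over the set describe muscle genes and not the difference between genotypes. Each is the 250 bases before the annotated start, 5′ to 3′ on the gene's strand, from RefSeq (build GRCm38.p6). Capitals mark matches to the E-box CANNTG, which MyoD family factors bind with their partners, to the CArG box, bound by serum response factor, and to M-CAT (CATTCC or its reverse complement GGAATG), bound by TEAD factors.
Myog, chr1:134289754-134290003, + strand: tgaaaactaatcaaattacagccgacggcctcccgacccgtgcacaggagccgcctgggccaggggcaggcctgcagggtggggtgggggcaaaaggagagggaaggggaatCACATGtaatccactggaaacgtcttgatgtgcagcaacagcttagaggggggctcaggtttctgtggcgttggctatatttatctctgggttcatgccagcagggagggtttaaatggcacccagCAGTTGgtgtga
Myl1, chr1:66945057-66945306, - strand: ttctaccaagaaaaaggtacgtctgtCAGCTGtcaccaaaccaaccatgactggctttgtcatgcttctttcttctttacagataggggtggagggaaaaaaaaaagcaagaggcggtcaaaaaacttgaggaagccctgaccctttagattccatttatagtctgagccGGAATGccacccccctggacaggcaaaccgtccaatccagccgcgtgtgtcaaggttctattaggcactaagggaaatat
Actc1, chr2:114052876-114053125, - strand: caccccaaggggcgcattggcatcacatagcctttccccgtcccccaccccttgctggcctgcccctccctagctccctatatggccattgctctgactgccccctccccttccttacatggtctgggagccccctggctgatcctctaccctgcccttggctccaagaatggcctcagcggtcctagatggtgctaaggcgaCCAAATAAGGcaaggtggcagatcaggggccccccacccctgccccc
Tnnt2, chr1:135836084-135836333, + strand: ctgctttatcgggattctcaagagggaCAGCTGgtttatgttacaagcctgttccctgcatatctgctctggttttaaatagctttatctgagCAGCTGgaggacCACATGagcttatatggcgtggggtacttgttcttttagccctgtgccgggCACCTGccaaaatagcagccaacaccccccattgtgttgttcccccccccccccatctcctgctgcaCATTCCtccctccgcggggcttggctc

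The Myog window held E-boxes that begin 138 and 12 bases before the start. The Myl1 window held 1 E-box and 1 M-CAT match, the Actc1 window no E-box and 1 CArG box, and the Tnnt2 window 4 E-boxes and 1 M-CAT match. Of the 34 genes, 27 had entries in the promoter table, with 31 windows in all. The 7 without an entry were Myod1, Myf6, Pax3, Chrnd, Tnnt3, Tnni2 and Neb. Windows with CANNTG made up 25 of the 31 (80.6%), against 66.2% of all 32851 windows of that length. For CAGCTG, which is 1 form of CANNTG, the count was 11 of 31 (35.5%) against 13.0%. It was found at 10 of the 27 genes, with 1 site at Tnni1 counted in both windows. They were the called Myl1, Mylpf, Tnnt2 and Tnni1, and Acta1, Ckm, Cacna1s, Chrna1, Chrng and Musk, not called or not tested. The windows of the called Myog, Actc1, Tnnt1, Tnnc1, Myh3 and Ryr1 had none, so the match did not follow the calls. For M-CAT it was 7 of 31 (22.6%) against 12.6%, for the CArG box 3 of 31 (9.68%) against 1.47%, for the MEF2 box 2 of 31 (6.45%) against 2.92%, and for the TATA box TATAAA 3 of 31 (9.68%) against 7.59%. All motifs were searched on both strands except TATAAA, which was searched on the gene's strand only. The MEF2 box was counted only as YTAWWWWTAR and the CArG box only as CCWWWWWWGG (Y is C or T, W is A or T, R is A or G). Looser forms of either were not counted, so a window without a match may still hold one. Mef2c has 3 windows, Tnnt2 and Tnni1 have 2 each, those of Tnni1 overlap, and a match is a string of letters, not a measured binding site.

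**Figure D1:**
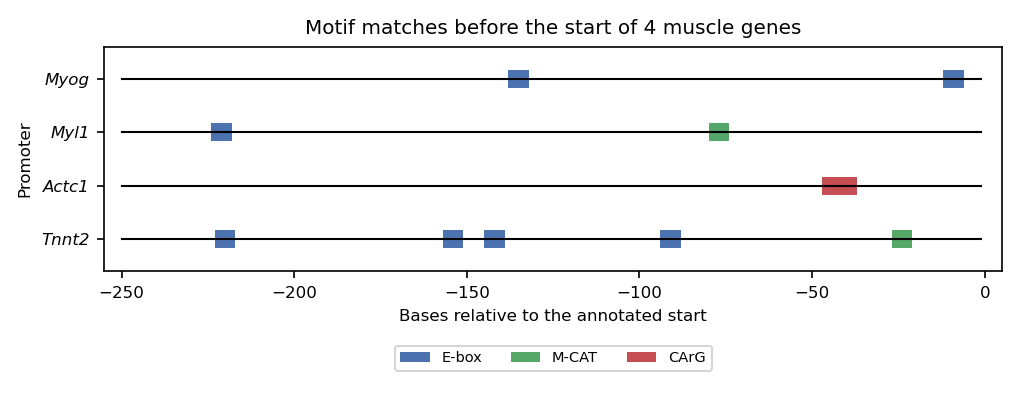
The 250 bases before the annotated start of Myog, Myl1, Actc1 and Tnnt2 are drawn as lines on an axis in bases relative to the start, with coloured blocks to scale for matches to the E-box CANNTG, the M-CAT letters and the CArG box. Myog and Tnnt2 carried 2 and 4 E-boxes, and the only match in Actc1 was a CArG box.

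Tests ran on the 27022 probe sets whose mean log2 value over the 4 arrays was above the lowest 40%, which set a lowest mean signal of 94.2. Of the 34 genes, 22 had a probe set above that level and 12 did not. At the brightest tested probe set of each gene, 11 of the 22 were higher in the mutant past an adjusted p of 0.05 (limma with Benjamini-Hochberg adjustment over all tested probe sets), against a background of 6.70% of the 13432 genes tested. By limma 0 were lower, against 5.82%. At an unadjusted limma p under 0.05 the counts were 15 higher and 0 lower. No share of all genes was taken at an unadjusted p, so such counts, here and below, have no background. Both mutant arrays lay above both wild-type arrays in 16 of the 22, against 29.1% of genes. The median log2 difference over these genes was 1.49, against 0.00 over all genes tested, and it was 0.93 without wild-type replicate 2. Since the genes were drawn up on this contrast, these counts only describe the set. For 5 of the 22 (Myog, Myl1, Tnnt2, Tnnc2 and Ryr1) the wild-type mean lay below 94.2, so they entered the test through their mutant signal. All of them but Tnnc2 are among the 11 called, which raises the share called.

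**Figure D2:**
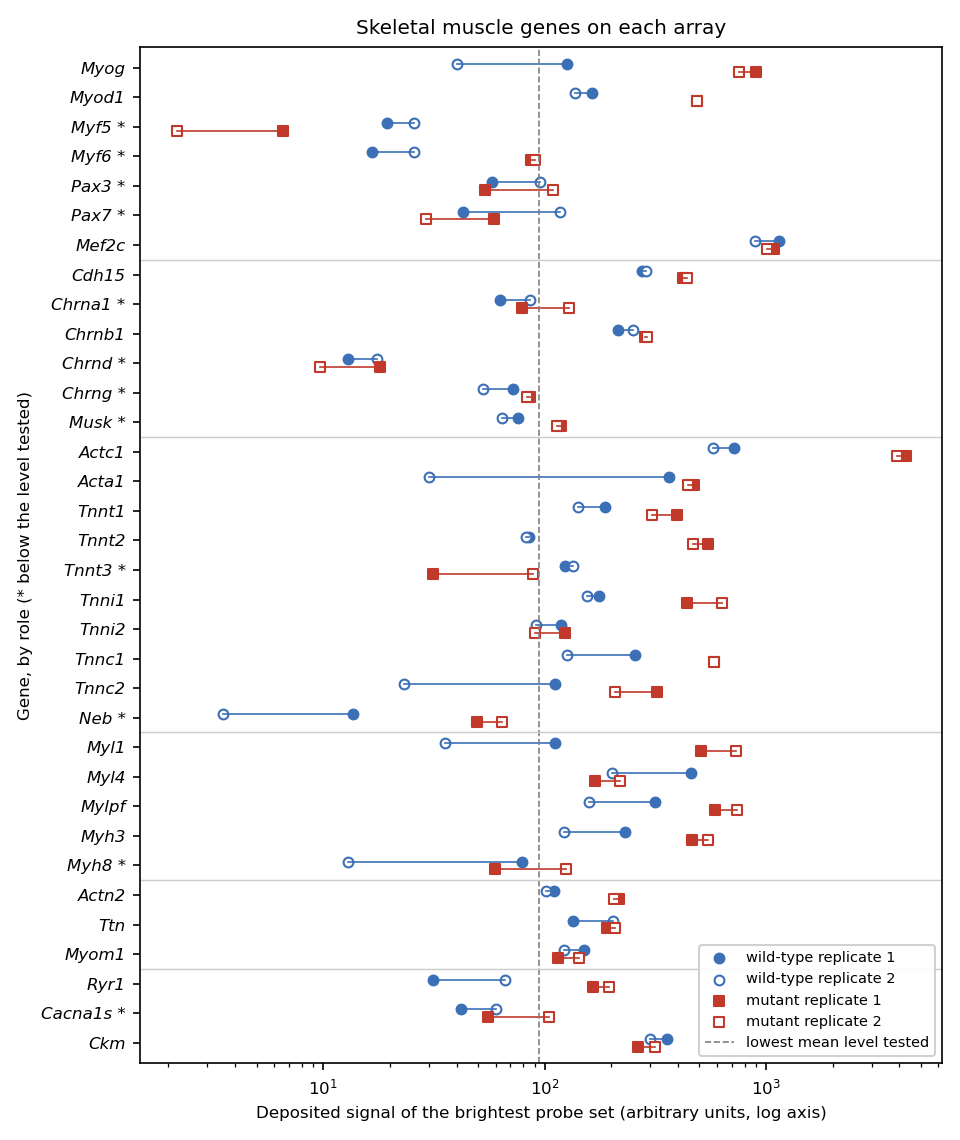
Signal of the brightest probe set of each of the 34 genes on each array, on a log axis, with wild-type arrays as circles and mutant arrays as squares (replicate 1 filled, replicate 2 open). Genes are ordered by role, an asterisk marks those below the tested level, and the dashed line is the lowest mean level tested, 94.2. For Myog, Actc1, Tnnt2 and Myl1 the groups stand well apart, and those of Mef2c, Pax3, Pax7 and Tnni2 overlap.

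Among the 3 tested regulators, Myog and Myod1 were called higher and Mef2c was not. Myod1 read 164 and 137 in wild-type kidneys and 486 and 485 in mutant kidneys, a log2 difference of 1.59 ± 0.19, and its mutant arrays were nearly equal. A second probe set for Myod1 read between 11.0 and 39.3 on all arrays, too low to be tested, and its groups overlapped. Myf6, a family member of later fibres, was below the tested level, with 16.7 and 25.8 in wild-type and 87.2 and 90.5 in mutant kidneys. The groups of Myf6 did not overlap. Myf5, which acts earliest in the family, went the other way at very low signals, 19.4 and 25.7 against 6.57 and 2.18.

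The precursor genes Pax3 and Pax7 showed overlapping groups at each of their 5 probe sets, none of which was bright enough to be tested. The brightest for Pax3 read 57.7 and 95.2 in wild-type and 53.7 and 108.9 in mutant kidneys. The brightest for Pax7 read 42.7 and 118 against 58.8 and 29.0. Mef2c, a MADS-box partner of the MyoD family that many other cell types express, was the brightest regulator in wild-type kidneys, and none of its 5 tested probe sets passed the threshold. At the brightest it read 1139.6 and 887 against 1090.3 and 1008.3, with a log2 difference of 0.06 ± 0.14.

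Of the genes of the muscle cell surface, 2 of 6 were tested and 0 called by limma (1 at an unadjusted p under 0.05). Cdh15, the M-cadherin of muscle precursors and satellite cells, read 275 and 288 in wild-type and 421 and 439 in mutant kidneys, with no overlap and a log2 difference of 0.58 ± 0.17 that was not past the threshold. Chrnb1, the beta subunit of the muscle acetylcholine receptor, read 215 and 251 against 283 and 291 (0.29 ± 0.20, not past). The other subunits, Chrna1, Chrnd and the embryonic Chrng, and the receptor kinase gene Musk were below the tested level. Musk, which organises the receptor cluster under the nerve ending, read 75.5 and 64.2 against 119 and 114 without overlap. Chrna1 ran from 62.8 to 85.8 against 78.8 to 128.6, and Chrnd had overlapping groups, with 12.9 and 17.4 in wild-type kidneys.

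The thin filament had the most tested genes of any role. For the thick filament 3 of 4 tested genes were called and for the regulators 2 of 3, against 6.70% of all genes tested. Those counts include Myl1 and Myog, on which the set was chosen, so they do not rank the roles. In the thin filament, 5 of 8 tested genes were called higher. Besides Actc1 and Tnnt2 these were the slow skeletal troponin T gene Tnnt1, the slow troponin I gene Tnni1 and Tnnc1, the troponin C of slow and cardiac muscle. Tnnt1 read 187 and 142 in wild-type and 397 and 304 in mutant kidneys, a log2 difference of 1.02 ± 0.23. Tnni1 read 175 and 155 against 437 and 630.0 (1.58 ± 0.22). Tnnc1 read 256 and 127 against 583 and 579 (1.60 ± 0.29). In all 3 genes the lower mutant array was above the higher wild-type array.

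The fast counterparts did not show 1 pattern. Tnni2, fast troponin I, read 118 and 91.4 against 123 and 90.7 (0.02 ± 0.32). Tnnt3, fast troponin T, was below the tested level, with both mutant arrays under both wild-type arrays (124 and 134 against 31.4 and 88.7). Tnnc2, fast troponin C, read 111 and 23.2 against 321 and 208, a log2 difference of 1.96 ± 0.52 that was not past the threshold. Tnnc2 passed under 6 of its 12 alternatives, and its difference was 1.11 without wild-type replicate 2 and 2.81 without wild-type replicate 1. A dim second probe set for Tnni2 (17.6 and 16.9 against 52.7 and 87.1) and the single one for Neb, nebulin (13.6 and 3.54 against 49.3 and 64.2), were also higher on both mutant arrays, below the tested level.

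Acta1, the skeletal actin of mature fibres, showed how far the wild-type arrays could differ. It read 365 on wild-type replicate 1 and 29.9 on wild-type replicate 2, against 470.4 and 446 on the mutant arrays. Its log2 difference of 1.84 ± 0.78 was not past the threshold. It was 0.31 with wild-type replicate 2 left out and 3.37 with wild-type replicate 1 left out, where it passed. With 1 wild-type array left, the fit takes the spread from the mutant arrays and the other probe sets, so that call assumes the lone array, at 29.9, to vary as they do. For Actc1, the corresponding values stayed between 2.48 and 2.78 over all alternatives tried.

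In the thick filament, 3 of 4 tested genes were called higher at their brightest probe set. Besides Myl1 these were Mylpf, the fast regulatory light chain, and Myh3, the embryonic myosin heavy chain. Mylpf read 316 and 158 in wild-type and 585 and 738 in mutant kidneys (log2 difference 1.49 ± 0.29), and Myh3 read 230 and 122 against 462 and 546 (1.49 ± 0.28). The perinatal heavy chain gene Myh8 was below the tested level, with overlapping groups (79.2 and 13.0 against 59.6 and 125).

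Myl4, the embryonic and atrial alkali light chain, gave opposite readings at its 2 probe sets. The dimmer one read 127 and 115 in wild-type and 316 and 321 in mutant kidneys, a log2 difference of 1.29 ± 0.22, and was called higher. The brighter one read 458 and 200.4 against 169 and 219.9 (-0.62 ± 0.35), with overlapping groups, and was not past the threshold. With wild-type replicate 2 left out it was called lower (-1.18).

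In the sarcomere lattice 0 of 3 tested genes were called by limma (1 at an unadjusted p under 0.05), and among coupling and energy genes 1 of 2, Ryr1. Actn2, the alpha-actinin of the Z-disc, read 110.2 and 101 against 216 and 206 (0.90 ± 0.25, not past the threshold). Ttn, the giant spring protein titin, had 6 probe sets, of which 3 were tested and none called. The brightest read 134 and 204 against 192 and 207 (0.25 ± 0.27) and another 122 and 114 against 176 and 92.4 (0.11 ± 0.34), both with overlapping groups. The third read 123 and 100.1 against 165 and 194 (0.62 ± 0.27) without overlap. Myom1, of the M-band, read 150.5 and 123 against 115 and 144 (-0.07 ± 0.28). Ryr1, the calcium release channel, read 31.3 and 66.2 against 166 and 194 (1.65 ± 0.37) and was called. The call was lost under 5 of its 12 alternatives: without wild-type replicate 1, without either mutant array, without the filter and without the intensity trend. For Ryr1, a second, untested probe set had overlapping groups (-0.41 ± 0.48). Cacna1s, the voltage sensor that opens it, was below the tested level with overlapping groups. Ckm, the muscle creatine kinase, read 357 and 300.4 against 265 and 315 at its brighter probe set (-0.17 ± 0.19) and 79.7 and 72.8 against 129.8 and 141 at its dimmer one (0.72 ± 0.30), neither past the threshold.

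**Figure D3:**
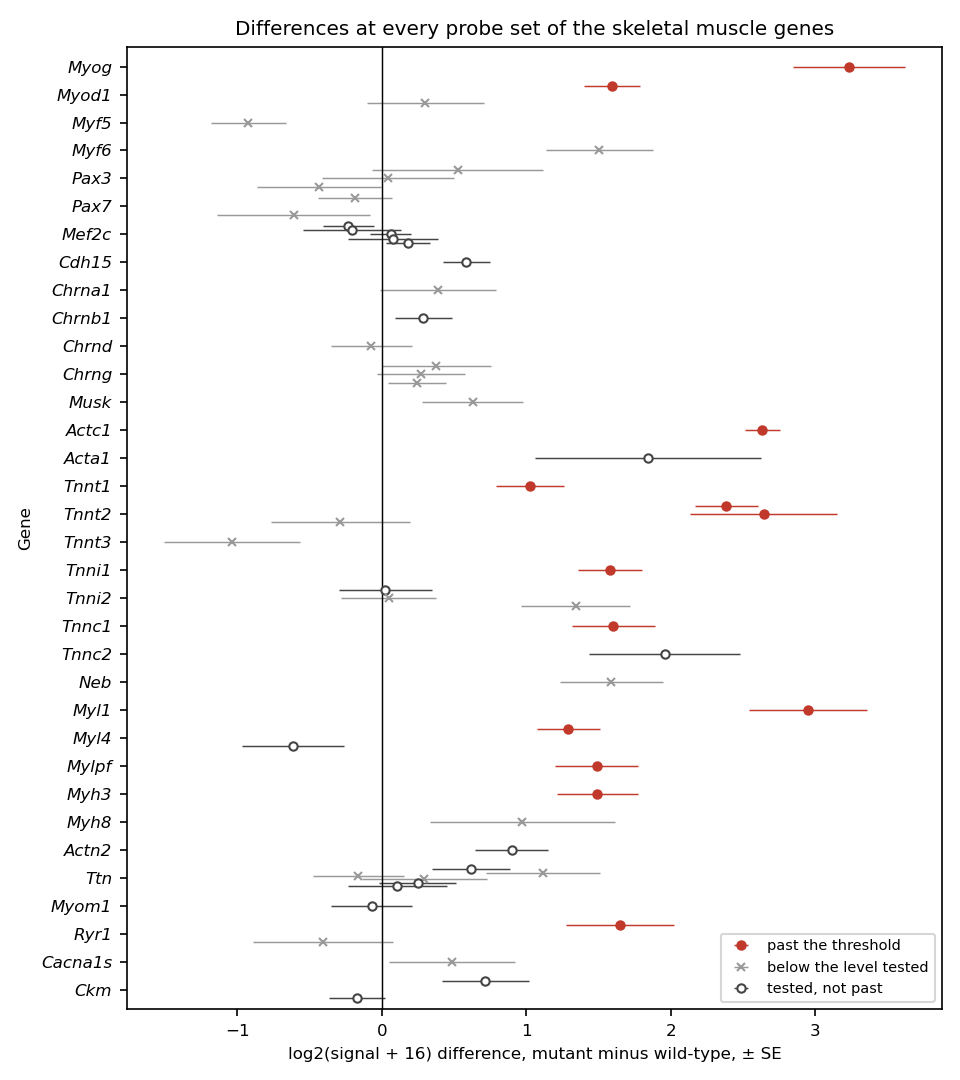
Log2 differences (mutant minus wild-type, bars ± SE of the limma fit) at all 56 probe sets, by gene. Red points are tested probe sets past the threshold, open circles tested ones that were not, and grey crosses those below the tested level, whose values come from the fit without a filter. Of 31 tested probe sets 13 were called higher and 0 lower, and Myl4, Ckm and Tnni2 show how probe sets of 1 gene differ.

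Over single probe sets, 13 of 31 tested were called higher, against 5.41% of all tested probe sets, and 0 lower, against 5.39%. With the low-value filter removed, 10 of all 56 probe sets were called higher (17.9%), against 2.23% of the 45037 probe sets, and 0 lower, against 2.19%. Those 10 were at Myog, Myod1, Myl1, Myl4, Mylpf, Myh3, Actc1, Tnnt2, Tnni1 and Tnnc1. Of the 12 genes with no tested probe set, 4 (Myf6, Chrng, Musk and Neb) had both mutant arrays above both wild-type arrays at their brightest probe set, against 17.9% of such genes on the array. Another 2 (Myf5 and Tnnt3) had both below, against 20.1%, and the groups of the other 6 overlapped.

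The arrays of a genotype were also compared with each other, a measure that the choice of genes did not use. Wild-type replicate 1 was above wild-type replicate 2 in 18 of the 22 tested genes (81.8%), against 52.4% of all genes tested. The median log2 difference, replicate 2 minus replicate 1, was -0.31 over these genes and -0.01 over all genes tested. Beyond Acta1 (-3.05), the wild-type gap was -1.70 for Tnnc2, -1.33 for Myog, -1.30 for Myl1 and -1.13 for Myl4, where the middle 50% of all genes ran from -0.18 to 0.14. The wild-type means of Tnnc2 (67.3), Myog (83.2) and Myl1 (73.1) were below 94.2, the lowest mean signal tested. The comparison with all genes was not matched for signal level. The exceptions were Cdh15, Chrnb1, Ttn and Ryr1, higher on wild-type replicate 2. In the list of 9 tested kidney genes 8 were also higher on wild-type replicate 1, so the direction was not found for muscle genes alone.

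Between the mutant arrays the tested genes were closer. Mutant replicate 1 was above mutant replicate 2 in 11 of the 22, and the median difference was 0.02 against 0.01 over all genes tested. The thick filament genes were all higher on mutant replicate 2, with gaps from 0.23 for Myh3 to 0.51 for Myl1. In the thin filament, 7 of 8 tested genes were higher on mutant replicate 1, the exception being Tnni1 (0.51). No test is attached to these values, since each is 1 difference between a pair of arrays.

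**Figure D4:**
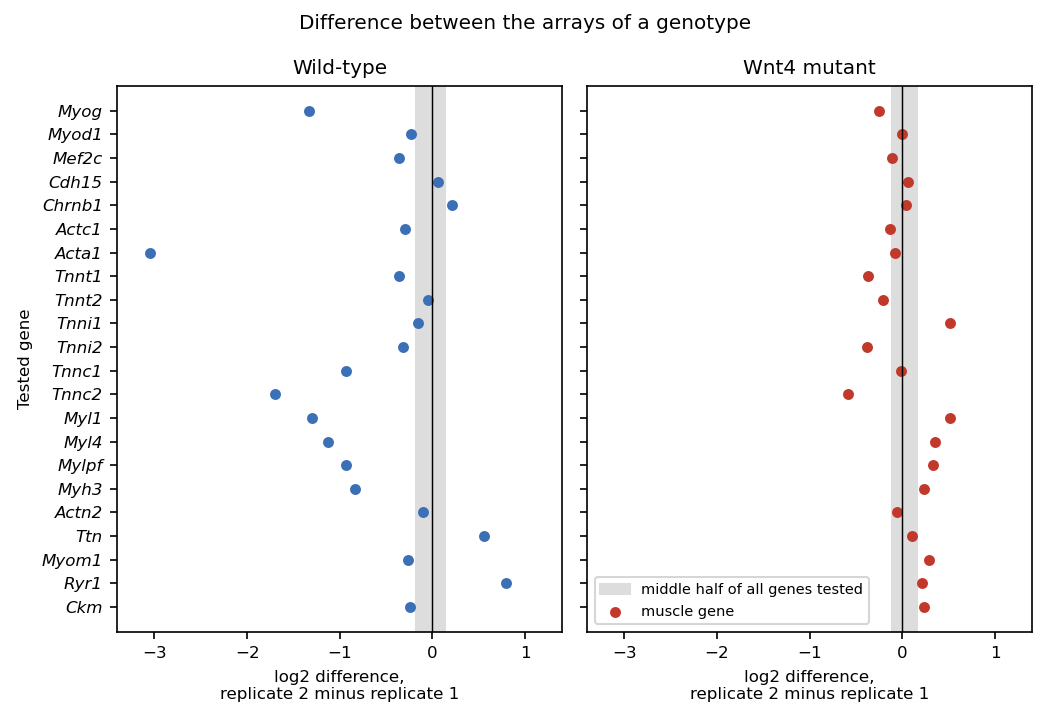
Log2 difference between replicate 2 and replicate 1 within wild-type kidneys (left) and within mutant kidneys (right) for the 22 tested genes, 1 point per gene, with the middle 50% of all genes tested in grey. In wild-type kidneys 18 points lie left of 0, with Acta1 at -3.05, and in mutant kidneys the points lie on both sides.

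A wider list of 86 skeletal muscle genes outside the set was compared to see how far the pattern reached. On the array were 79 of them, and 40 were tested. Of these, 4 were higher (10.0%, against 6.70% of genes) and 2 lower (5%, against 5.82%), and the median log2 difference was 0.05 against 0.00. These shares are near the background. The 4 higher calls were 7 without wild-type replicate 2 and 2 without either mutant array. The groups did not overlap in 13 genes higher and 12 lower in the mutant, against 29.1% and 28.0% of genes.

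The 4 that rose were Actn3, Fbxo32, Rbm24 and Casq2. Actn3, the alpha-actinin of fast fibres, read 726 and 857 in wild-type and 1799.2 and 1874 in mutant kidneys, a 2.30-fold rise (limma adjusted p = 0.0006), and stayed past the threshold under every alternative tried. Fbxo32, a ubiquitin ligase of muscle atrophy, rose from 189 ± 17.8 (SD, n = 2) to 517 ± 140.1, and a second probe set for it rose as well. Its adjusted p was 0.00767 in the limma fit and 0.0583 without the intensity trend, the highest over its alternatives, with the lowest 1.1e-05. Rbm24, an RNA-binding splicing factor of muscle and heart, rose 1.95-fold (limma adjusted p = 0.0168), a call lost without either mutant array, where the adjusted p was 0.0715 without mutant replicate 1 and 0.0813 without mutant replicate 2. Over its alternatives it ran from 0.00185 to 0.0813. Casq2, the calsequestrin of slow and cardiac muscle, rose 2.10-fold (limma adjusted p = 0.0309), and was not past the threshold without mutant replicate 1 (0.0503) or mutant replicate 2 (0.179), with a range from 0.00338 to 0.179 over its alternatives.

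The 2 called lower at their brightest tested probe set were Fhl1 and Smyd1. With the filter removed, Smyd1 was called higher at another probe set and not called lower, so its direction is not settled. Fhl1, a LIM protein of muscle and other tissues, read 2170.8 and 2171 in wild-type and 1240.1 and 1191 in mutant kidneys, a 1.78-fold lower level (limma adjusted p = 0.00126). Its dimmer probe set pointed the other way without passing the threshold (140 and 155 in wild-type against 171 and 193 in mutant kidneys). With the mean over its probe sets the adjusted p was 0.189, the highest over its alternatives, and the lowest was 0.000278. Smyd1, a muscle chromatin and myosin-folding factor, was called lower at its brightest probe set (352 ± 22.2 against 204 ± 15.2, limma adjusted p = 0.0447), and did not pass with any 1 array omitted (adjusted p from 0.0612 to 0.165, and from 0.0278 to 0.165 over all its alternatives). Of its 3 probe sets below the tested level, 1 was lower and 2 were higher on both mutant arrays, the latter including 1 with 5.10 and 6.07 against 90.5 and 85.9. The brightest genes of the list that did not pass were Mef2a, Eno3, Mef2d and Lrp4, with log2 differences of 0.10, -0.08, 0.34 and 0.07. Atp2a1, the calcium pump of fast fibres, named after its values were seen, read 59.3 and 147 against 266 and 271 (adjusted p = 0.0508 by limma).

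Several genes of this list were close to background in wild-type kidneys and above it in both mutant arrays, below the tested level. Eya2, a transcriptional cofactor, read 14.0 and 8.40 against 181 and 229. Mybph, a myosin-binding protein of the thick filament, read 17.2 and 9.35 against 182 and 165. Mymk, which encodes the fusion protein myomaker, read 22.4 and 7.35 against 121 and 149. In 10 of the list's 39 genes with no tested probe set both mutant arrays were instead below both wild-type arrays. Among them were Myoz3 (67.8 and 65.8 against 21.0 and 19.0) and Colq (123 and 113 against 72.2 and 25.5). All genes of this paragraph were named after their values were seen.

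With the filter removed, 10 of the list's 137 probe sets were called higher (7.30%, against 2.23%) and 1 lower, at Fhl1. The 10 were at Actn3, Eya2, Fbxo32, Mybpc1, Mybph, Myh1, Mymk, Myot, Rbm24 and Smyd1. For Smyd1 this is opposite to the lower call at its brightest probe set, which was not past the threshold here. The 39 genes with no tested probe set had a median log2 difference of 0.05, against -0.02 over all 4761 such genes. In 13 both mutant arrays were above both wild-type arrays and in 10 both were below, against 17.9% and 20.1%. Among 9 metabolic genes 6 were below the tested level. They included the myoglobin gene Mb, Pgam2, Ampd1 and Ckmt2, named after their values were seen, whose groups overlapped (log2 differences 0.11, -0.12, -0.29 and -0.36). The other 2 were Cox8b, with 20.7 and 12.8 against 35.3 and 49.3 and no overlap (0.83), and Pvalb, with overlapping groups (0.79).

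Several called genes of the set are shared with the heart, so cardiac genes were read beside them. Of 14 cardiac markers, 10 were below the tested level, among them the defining Nkx2-5, Myh6, Myl7 and Nppa. Of those 10, both mutant arrays were above both wild-type arrays in 4 (Hand2, Myh6, Myl2 and Tnni3) and below in 2 (Nkx2-5 and Ryr2). Myl2 was barely apart at very low signals, with 19.55 and 22.24 against 37.76 and 23.84. Ryr2 read 65.7 and 29.35 against 16.5 and 22.3. Over all genes with no tested probe set the shares were 17.9% above and 20.1% below. Tnni3, cardiac troponin I, read 32.2 and 40.8 in wild-type against 112 and 136 in mutant kidneys, and Hand2, a factor of heart and limb, 43.8 and 11.3 against 74.5 and 58.6. Nkx2-5, the cardiac homeobox factor, averaged 75.7 in wild-type and 23.8 in mutant kidneys, and Myl7, the atrial light chain, 37.7 and 31.7. The brighter probe set of Myh6, the alpha heavy chain of cardiac myosin, averaged 33.8 and 58.4 and its dimmer one 5.40 and 31.3, and Nppa averaged 84.2 and 110.2. Of the 4 tested cardiac genes, 0 were called by limma in either direction (0 also at an unadjusted p under 0.05), and their summed signal was 828 to 1030.1 in wild-type and 737 to 907 in mutant kidneys.

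Smooth muscle genes had a median log2 difference of -0.28. Of 9 tested, 2 were lower, Tagln (719 ± 12.3 against 361 ± 124, limma adjusted p = 0.0245) and Acta2 (4689 ± 400 against 3289.9 ± 529, limma adjusted p = 0.032), and 1 was higher, the tropomyosin gene Tpm2 by 1.24-fold. Over all genes tested 5.82% were called lower and 6.70% higher, the background for this list and those below. Lists this short do not allow a close comparison with those shares. Tpm2 is expressed in skeletal as well as smooth muscle, and all 4 of its tested probe sets were called higher. The call at its brightest probe set was lost without wild-type replicate 2 (adjusted p = 0.0547) or either mutant array (0.248 and 0.211), with a range from 0.00508 to 0.248 over its alternatives. Leaving out mutant replicate 2 ended the call of Tagln (adjusted p = 0.0752) and that of Acta2 (0.187), with ranges from 0.0014 to 0.124 and from 0.00525 to 0.591. The summed signal of the list ran from 14112 to 14518 in wild-type and from 12337 to 14001 in mutant kidneys.

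Markers of tendon, cartilage and bone were read as well. In the tendon list, Mkx, a homeobox gene of tendon and muscle connective tissue, rose from 68.8 ± 24.3 to 284 ± 42.9 (limma adjusted p = 0.00766) and passed under every alternative tried. The other 2 tested genes of that list, Scx and Fmod, did not pass. Scx read 112 and 202 against 211 and 309 at its brightest probe set (log2 difference 0.70), without overlap, and its other probe set did not overlap either. Fmod had overlapping groups at its brightest (-0.21), and the list median was 0.70. Tnmd, a marker of mature tendon, averaged 65.3 and 37.2, below the tested level. In the cartilage and bone list 1 of 8 tested genes was called, Col9a1, 1.41-fold higher (limma adjusted p = 0.0435), a call lost without mutant replicate 1 (0.305) or mutant replicate 2 (0.0553), with a range from 0.036 to 0.305 over its alternatives. Col2a1 read 716 and 840.4 against 752 and 927, and Acan read 162 and 113 against 108.2 and 120.1, both with overlapping groups. Hapln1, a cartilage link protein, had both mutant arrays above both wild-type arrays at all 4 of its probe sets. Its brightest read 333 and 357 against 507 and 501 (log2 difference 0.53, limma adjusted p = 0.0632), and a dimmer one was called higher (88.4 and 121 against 259 and 253, limma adjusted p = 0.0243). Of the 5 cartilage and bone genes below the tested level, 3 had both mutant arrays above and 0 below. Over all such genes on the array the shares were 17.9% and 20.1%. The 3 were Col9a2 (means of 31.0 and 140.5), Cnmd (57.4 and 97.9) and Col11a2 (69.7 and 96.9). The summed signal of the cartilage and bone list was 2772 to 2777 in wild-type and 3191 to 3217 in mutant kidneys, and that of the tendon list 489 to 509.8 and 771 to 791. The part of these tissues in the muscle signal was not tested.

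In the neural, adrenal and liver lists 0 genes were called higher by limma, and 2, both neural, were higher at an unadjusted p under 0.05. Of 7 tested neural and Schwann cell genes 1 was called, Fabp7, lower (log2 difference -1.03). In 4 of the 7 both mutant arrays were above both wild-type arrays, against 29.1% of all genes tested, and none of the 4 passed. They were Syt1 (log2 difference 0.67, limma adjusted p = 0.0503), Stmn2 (0.66), Gap43 (0.32) and Elavl4 (0.27). The median of the neural list was 0.27. Of 4 tested adrenal and gonad genes 1 was called, Mc2r, also lower (-1.36). Both calls were lost without some of the arrays, that of Fabp7 without any 1 array (adjusted p from 0.101 to 0.128, and from 0.0214 to 0.128 over all its alternatives) and that of Mc2r without wild-type replicate 1 or mutant replicate 2 (0.148 and 0.0928, in a range from 0.00655 to 0.148). The neuronal tubulin gene Tubb3 averaged 40.6 and 48.8 and the liver gene Alb 88.4 and 111, all below the tested level. Afp, a fetal liver and yolk sac gene, read 1127 and 1562 in wild-type against 69.7 and 520.1 in mutant kidneys (log2 difference -2.65, limma adjusted p = 0.0438). Its adjusted p ran from 4.4e-07 to 0.194 over the alternatives. In the kidney list the stromal gene Foxd1 was 3.08-fold higher and the nephron genes Lhx1 and Nphs1 lower (log2 differences -2.57 and -1.53). The part of cardiac and neural tissue in the muscle signal was not tested.

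**Figure D5:**
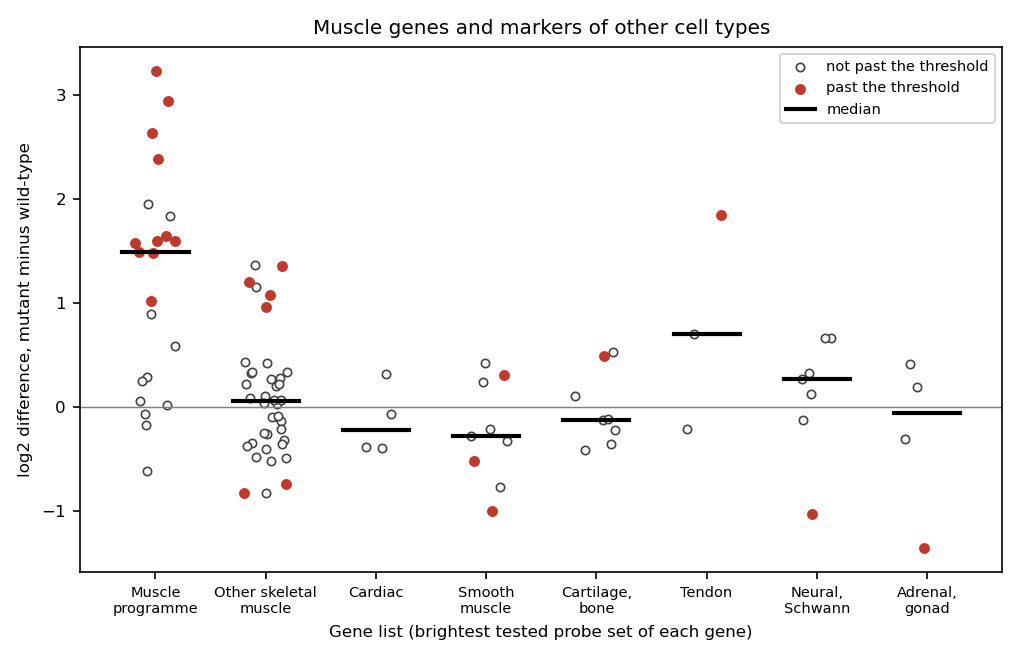
Log2 differences at the brightest tested probe set of each gene, 1 point per gene, for the skeletal muscle programme, the wider skeletal muscle list and lists of other cell types, with bars at the medians and red points past the threshold. The programme, drawn up on this contrast, has a median of 1.49, the wider muscle list one of 0.05 and the smooth muscle list one of -0.28.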

How the data were processed

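Labelled, amplified RNA (1 round, per the labels' protocols) was hybridised to 4 Affymetrix arrays, 2 per genotype. The authors deposited linear signal intensities, 1 for each probe set of an array. GCOS is the tool listed in the submitters' processing notes, and how probes were summarised is not given in the sources used here. The mean after trimming 2% of probe sets at each end was 500.0 on all 4 arrays, and no further normalization was applied.

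Signals were taken as log2(signal + 16). The 64 control probe sets and the lowest 40% by mean were left out, and each probe set was given a 2-group model in limma 3.58.1 under R 4.3.3 (lmFit, eBayes with an intensity trend, two-sided, Benjamini-Hochberg threshold 0.05). The added 16 understates changes of dim genes. A gene was represented by its brightest tested probe set. Symbols were checked by gene identifier against a RefSeq table (GRCm38.p6), and none changed. An exact test of 2 arrays against 2 cannot go below p = 0.33, and the number of arrays limits the precision.

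The genes of the programme and all lists were chosen with earlier results of these data known. Values on every array were given for called genes, MyoD family factors, Pax3, Pax7 and genes with disagreeing probe sets, and for others outside that rule that were chosen after their values were seen. Of the wider list, called genes and the 4 brightest uncalled ones were named, and of other cell types called genes and defining markers. Alternatives were other normalizations, pseudocounts, filters, variance models and probe set choices, the replicate number as a block, and leaving out each array. Same-numbered arrays shared no deviation (correlation -0.02), so the numbers do not pair the samples.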

Additional observations from a re-analysis of the deposited data

How the results depend on the processing

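Of the 22 tested genes of the programme, 6 changed sign under some alternative and 0 of the 11 called ones did. Myl4 turned to 0.34 and Ckm to 0.27 with the mean over probe sets, and Mef2c, Tnni2, Ttn and Myom1, all within 0.25 of 0, turned when an array was left out (Mef2c also with the mean over probe sets). Fits without 1 array assume that the lone array of that genotype varies like the others. The number of genes of the programme called higher was 11, fell to 6 without the intensity trend (Tnnt1, Tnnc1, Myl1, Mylpf, Myh3 and Ryr1 were lost and Actn2 was gained), and was 9 to 12 with 1 array omitted. The number called lower was 0, and 0 to 1 when 1 array was left out (Myl4 without wild-type replicate 2). The median log2 difference of 1.49 was 1.20 with a pseudocount of 64, 0.76 over all 34 genes with no filter, and 0.93 to 1.59 when 1 array was left out, with 0.93 without wild-type replicate 2. In the wider muscle list the 4 higher calls became 7 with no filter, where 79 genes were tested, 2 without the intensity trend, and 2 to 7 when 1 array was left out (7 without wild-type replicate 2, 2 without either mutant array). Its 2 lower calls became 1 with quantile normalization, with no filter, without the intensity trend, without _x_at and _s_at probe sets and with the replicate block, 0 with the mean over probe sets, and 1 to 2 when 1 array was left out. Its median of 0.05 was -0.0078 to 0.10 with 1 array omitted, the negative value being that without wild-type replicate 2. The replicate block gave 12 genes of the programme called higher and changed the calls of Tnnc2, Smyd1, Fabp7 and Tpm2 among the named genes. Counting a gene by any tested probe set, an alternative chosen after seeing the data, added Myl4, for 12 called higher. Acta2 turned to 0.28 (adjusted p = 0.591) with the mean over its probe sets, 2 of which are below the tested level. Arrays centred on their medians gave 14 genes of the programme called higher. The causes of these shifts were not tested. Low signal over background limits what can be said of the 12 genes with no tested probe set.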
